A study of Mus musculus with 6 samples.

Results

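The genes described here encode the folding machinery of the endoplasmic reticulum (ER) and the unfolded protein response that adjusts it. There were 37 listed genes, chosen by their known roles, and an entry counted as a member when its symbol in the deposited table equalled the listed name. Of these, 36 had an entry among the 54884 of the table, each with 1 entry, and 34 reached the mean of at least 1 FPKM (fragments mapped per kilobase of transcript, scaled to library size) over the 6 libraries that was needed for testing. Derl3 and Ero1lb lay below that mean. Selk had no entry under its listed name, and its entry stands under the current symbol Selenok.

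Secreted and membrane proteins fold in the ER, where the chaperones BiP and GRP94, the lectins calnexin and calreticulin and the protein disulfide isomerases assist them. The membrane sensors IRE1, PERK and ATF6 respond when unfolded proteins accumulate, in that order by splicing the Xbp1 mRNA, by phosphorylating a translation factor and by releasing a transcription factor after proteolysis. Their targets include the chaperones and the genes of ER-associated degradation, by which misfolded proteins are returned to the cytosol and destroyed.

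Messenger RNA was measured in neural stem cells from the hippocampus of C57BL/6 mouse embryos at embryonic day 14, used between passages 3 and 8. In 3 libraries the cells carried a lentivirus with an siRNA against circHIPK2, a circular RNA named after the Hipk2 gene, and in 3 control libraries a lentivirus with the circCon siRNA. The question put by the design is which transcripts differ when circHIPK2 is silenced. A gene's FPKM does not separate a circular RNA from its host gene, so the silencing itself was not checked here. The labels do not say whether replicates came from different cultures, and the p-values therefore rest on library-to-library spread that could be technical.

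Depth, read from the steps of the low FPKM values, was between 18430000 and 20990000 fragments in the siRNA libraries and between 19880000 and 21900000 in the control libraries. The 10 neural stem cell markers summed to between 1474 and 1794 FPKM in siRNA libraries and between 1801 and 2221 FPKM in control libraries. Much of that sum was Fabp7, at 592 to 881 FPKM with the siRNA and 946 to 1545 FPKM in controls. Vim had 597 to 662 FPKM against 386 to 605 FPKM, and Nes 63.3 to 77.0 FPKM against 64.1 to 85.3 FPKM. Means of Vim, Sox2, Pax6 and Notch1 were higher with the siRNA, and those of the other markers of that list were lower. The astrocyte list summed to 164 to 392 FPKM against 178 to 315 FPKM, and the oligodendrocyte list to 597 to 749 FPKM against 749 to 815 FPKM. The neuron list summed to 93.4 to 105 FPKM against 120 to 130 FPKM, mostly Map2 at 84.8 to 93.7 FPKM against 106 to 115 FPKM. Microglial and endothelial lists summed to under 1 FPKM in each library, and Cx3cr1 was listed at 0 in the 6 libraries. The 9 entries listed as ribosomal RNA locus entries took 11.5%, 3.24% and 19.9% of all FPKM in siRNA libraries 1 to 3, against 0.58%, 0.43% and 0.32% in control libraries 1 to 3. The liver list of 8 genes summed to between 1.96 and 2.22 FPKM with the siRNA and to between 33.4 and 55.5 FPKM in controls, with Alb at 0.0365 to 0.12 FPKM against 15.8 to 21.6 FPKM. In bulk RNA, fewer cells of a type and less RNA per cell cannot be told apart.

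Many of these genes are known for a short regulatory sequence ahead of their start, the ER stress response element (ERSE), at which ATF6 acts together with the CCAAT-binding factor NF-Y. It is shown first because the members with it include the major chaperones that the results turn on. RefSeq promoters of build GRCm38.p6 were found for 33 of the 37 genes, with Atf6, Hyou1, Manf and Derl1 named only. The 250 bases before each start were searched on both strands for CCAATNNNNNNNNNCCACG. The element was present in 10 of the 33 genes (30.3%), against 35 of all 27025 genes in that table (0.13%). Several members are textbook targets of this element, so the share is not independent of how the list was made. The matches are given below in the orientation of the element, with its fixed letters in capitals and the 9 free bases in lower case.
Hspa5: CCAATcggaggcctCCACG
Hsp90b1, far match: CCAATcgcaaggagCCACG
Hsp90b1, near match: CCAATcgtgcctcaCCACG
Calr: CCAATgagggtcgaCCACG
Canx: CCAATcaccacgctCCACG
Creld2: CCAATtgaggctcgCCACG
Dnajc3: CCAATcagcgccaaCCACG
Pdia6: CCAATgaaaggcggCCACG
Syvn1: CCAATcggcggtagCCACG
Derl3: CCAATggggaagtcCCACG
Ero1lb: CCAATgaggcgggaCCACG

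Counted from the last base before the start as −1, the match of Syvn1 lay nearest, from −44 to −26, and the far match of Hsp90b1 began at −212. Hsp90b1 was the one member with 2 matches, on opposite strands. A shorter form, ERSE-II (ATTGG, 1 free base, then CCACG), was present in Herpud1 (ATTGGgCCACG, from −52 to −42) and in 10 of all genes (0.037%). A site known for XBP1 binding, TGACGTGG, was in 0 of the 33 and in 163 of all genes (0.603%). A match is a run of letters and not a measured binding site. The 250 bases before the start are shown for Hspa5 and Hsp90b1, which encode BiP and GRP94 and hold the element, and for Dnajb9, the member with the highest fitted fold change and no match, with ERSE matches in capitals.
Hspa5, chr2:34771840-34772089, plus strand: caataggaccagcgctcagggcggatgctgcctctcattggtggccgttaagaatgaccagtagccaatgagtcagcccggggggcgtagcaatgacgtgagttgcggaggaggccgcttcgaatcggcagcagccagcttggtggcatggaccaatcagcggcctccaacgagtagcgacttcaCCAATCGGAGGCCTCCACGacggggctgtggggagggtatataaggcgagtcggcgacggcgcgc
Hsp90b1, chr10:86705445-86705694, minus strand: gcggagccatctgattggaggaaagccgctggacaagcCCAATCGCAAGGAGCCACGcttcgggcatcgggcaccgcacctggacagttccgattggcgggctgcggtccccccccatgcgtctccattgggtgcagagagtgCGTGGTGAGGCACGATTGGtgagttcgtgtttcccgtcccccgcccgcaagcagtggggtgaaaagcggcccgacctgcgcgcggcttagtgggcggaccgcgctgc
Dnajb9, chr12:44210069-44210318, minus strand: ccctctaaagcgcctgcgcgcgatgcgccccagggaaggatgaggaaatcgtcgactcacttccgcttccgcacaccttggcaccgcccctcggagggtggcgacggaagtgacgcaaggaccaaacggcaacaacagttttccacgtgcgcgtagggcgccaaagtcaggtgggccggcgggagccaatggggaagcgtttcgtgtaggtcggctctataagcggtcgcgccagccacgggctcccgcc

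**Figure D1:**
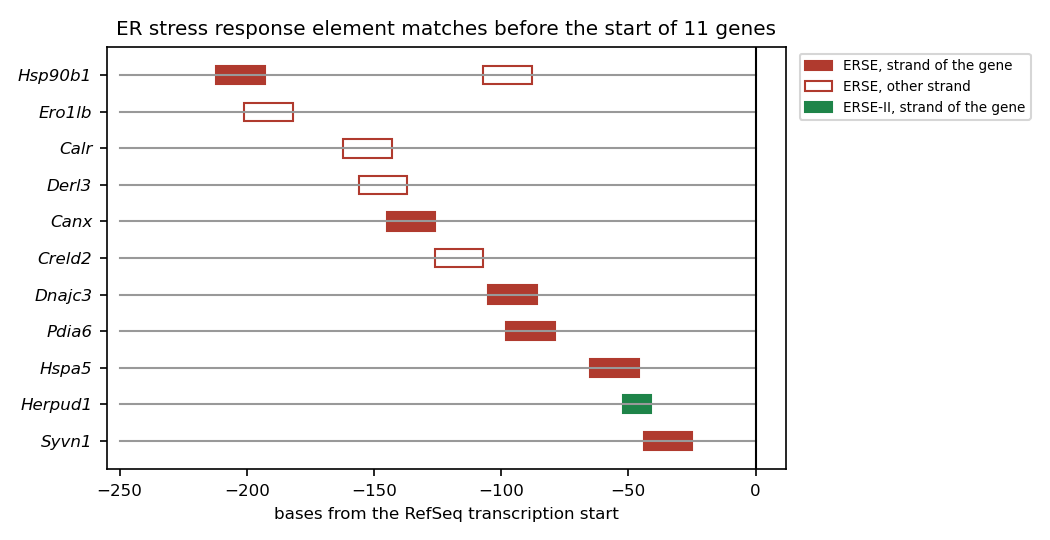
Position of each ERSE (red) and ERSE-II (green) match in the 250 bases before the RefSeq start of 11 genes, with distance in bases on the horizontal axis. Filled boxes read along the gene's strand and open boxes along the other. Matches lie between −212 and −26, and Hsp90b1 has 2.

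The level of the members differed widely, and 7 folding and translocation genes averaged 80 FPKM or more. Calr, the calcium-binding lectin calreticulin, had the highest mean of the members at 222 FPKM over the 6 libraries, at percentile 98.6 of all entries tested. Hsp90b1, Canx, Ssr3, Hspa5, Pdia3 and P4hb followed, each above percentile 95. Ern1, which encodes the sensor IRE1, had the lowest mean of the members tested, 1.49 FPKM, at percentile 6.82. Eif2ak3, which encodes PERK, and Atf6 lay near the middle, at percentiles 51.7 and 40.8. Derl3, a Derlin of the ER degradation machinery, had 0.310, 0.243 and 0.222 FPKM in siRNA libraries 1 to 3, against 0.138, 0.233 and 0.401 FPKM in control libraries 1 to 3. Ero1lb, an oxidase of disulfide formation, had 0.443 to 0.537 FPKM with the siRNA and 0.497 to 0.622 FPKM in controls. The groups of both these weak genes overlapped.

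**Figure D2:**
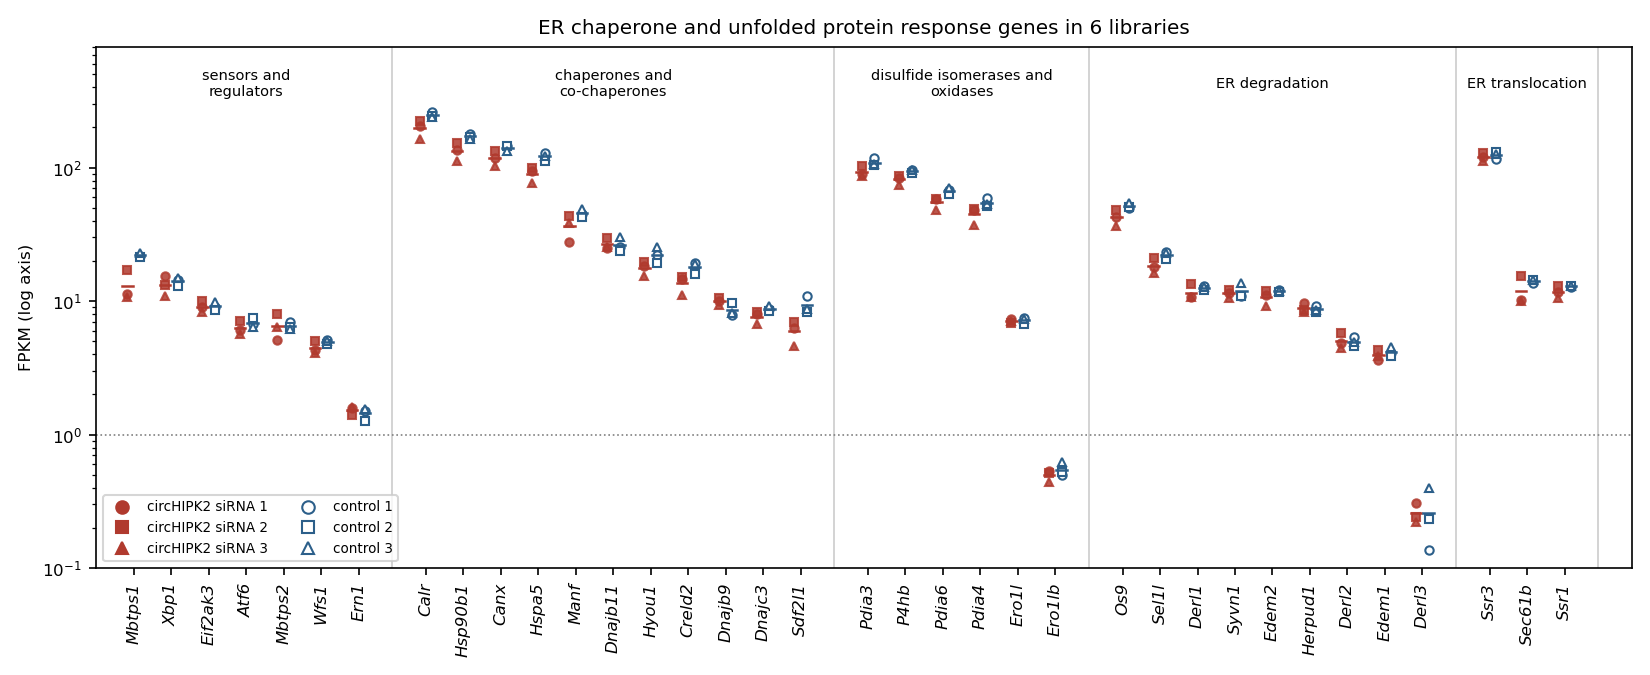
FPKM on a log axis for the 36 genes with an entry, by role, with red filled symbols for circHIPK2 siRNA libraries on the left of each gene, blue open symbols for control libraries on the right, and bars for group means. The dotted line marks 1 FPKM. Levels run from 222 FPKM for Calr to under 1 FPKM for Derl3 and Ero1lb, and the siRNA symbols of Mbtps1, Sdf2l1, Hspa5, Hsp90b1 and Calr lie below their controls.

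No member passed the test between circHIPK2 siRNA and control libraries. With limma on log2(FPKM + 1) and Benjamini-Hochberg adjustment over all 13702 entries, 0 of 34 members had an adjusted p below 0.05, and their adjusted p-values ran from 0.132 to 0.986. The share of all entries called was 0.255%. At an unadjusted p below 0.05, 10 members were lower and 0 higher with the siRNA, against 15.5% and 1.83% of all entries. The siRNA libraries lay entirely below the controls for 12 members and entirely above for 0, against 22.1% and 2.65% of all entries. Without siRNA library 2 the count of members entirely below was 23, against 42.4% of all entries. The fitted change was negative for 29 of 34 members and for 77.1% of all entries.

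The values as deposited were shifted for the whole table. The median log2 fold change (siRNA minus control) was −0.12 over all entries tested and −0.16 over the members, a difference of −0.04. Median-of-ratios scaling brought the median of all entries to −0.0012 and that of the members to −0.04. Hspa5 and Dnajb9 are therefore also given relative to all entries. The changes of other genes are as deposited, with that shift in them, unless a scaling is named. Of the 34 members, 21 lay below the median of all entries and 13 above it. After that scaling the siRNA libraries lay entirely below the controls for 9 members and entirely above for 2, against 10.1% and 10.1% of all entries. Differences between roles were not tested. Among chaperones and co-chaperones 9 of 11 lay below the median of all entries, and among disulfide isomerases and oxidases 4 of 5. Among ER degradation genes 4 of 8 did so, among sensors and regulators 2 of 7 and among translocation genes 2 of 3.

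**Figure D3:**
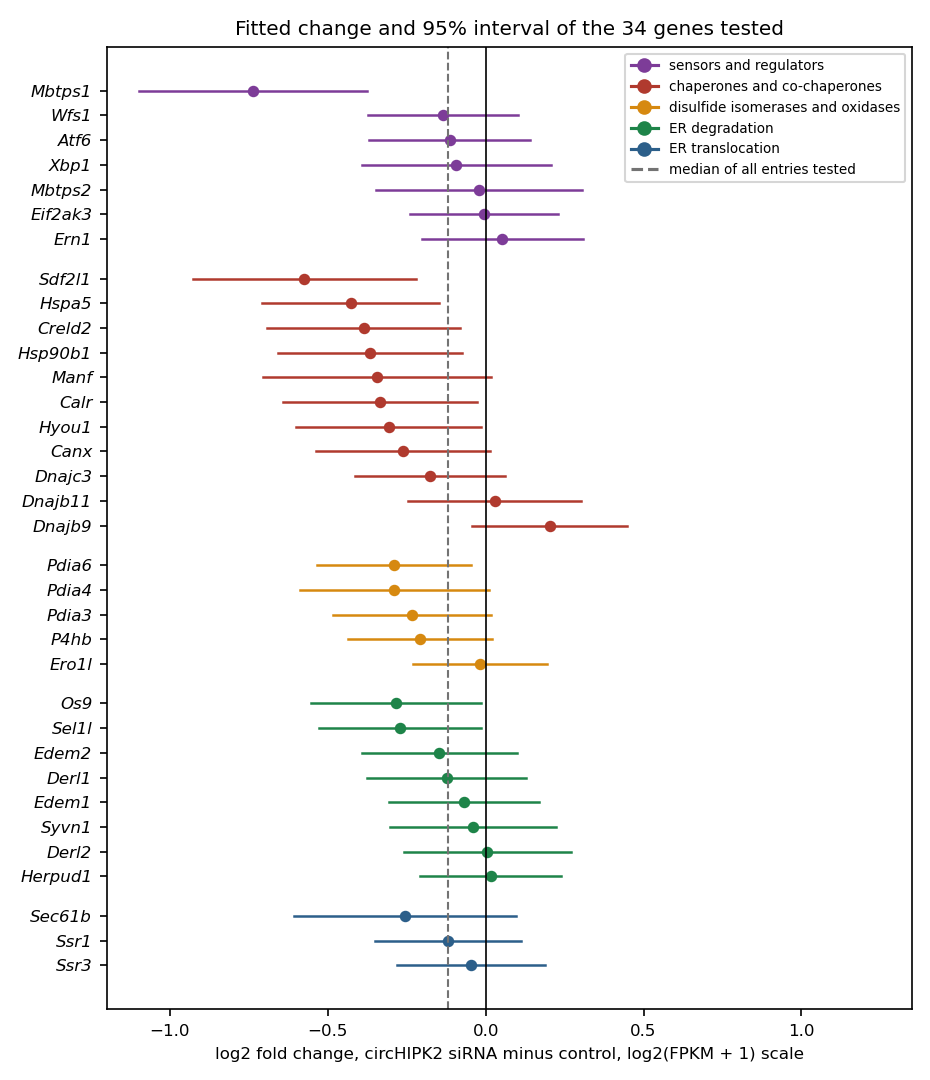
Fitted log2 fold change (siRNA minus control, on the log2(FPKM + 1) scale) with its 95% interval for the 34 genes tested, coloured by role, with a line at 0 and a dashed line at the median of all 13702 entries. Most chaperones lie left of the dashed line, and Dnajb9 and Dnajb11 lie right of 0.

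The major chaperones had lower mean values with circHIPK2 siRNA, and those of the 4 most abundant were between 74.4% (Hspa5) and 83.7% (Canx) of the control means. Hspa5, which encodes BiP, the Hsp70 of the ER which also holds the sensors inactive, had 93.9, 99.1 and 77.3 FPKM in siRNA libraries 1 to 3, against 129, 112 and 122 FPKM in control libraries 1 to 3. Each siRNA library was below each control, with siRNA library 3 lowest. Its mean was 90.1 ± 11.4 FPKM with the siRNA and 121 ± 8.77 FPKM in controls (SD, n = 3 each). The fitted log2 difference of −0.43 (SE 0.12) was −0.31 relative to all entries and did not pass (limma adjusted p = 0.189). The exact permutation p was 0.1, the smallest that 3 against 3 libraries allow. Hsp90b1, which encodes the Hsp90 of the ER, GRP94, had 135, 152 and 113 FPKM in siRNA libraries 1 to 3, against 178, 170 and 165 FPKM in controls, again without overlap, and its log2 fold change was −0.37 (SE 0.13, limma adjusted p = 0.223).

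Of the 2 lectin chaperones that hold glycoproteins during folding, Calr had 204, 224 and 163 FPKM in siRNA libraries 1 to 3, against 259, 242 and 239 FPKM in control libraries 1 to 3. These groups did not overlap, and the log2 fold change was −0.33 (SE 0.13, limma adjusted p = 0.264). Canx, the membrane-bound calnexin, had 118, 134 and 103 FPKM against 146, 144 and 134 FPKM in controls. Here siRNA library 2 overlapped the lowest control. Hyou1, the nucleotide exchange factor GRP170 that serves BiP, had 15.5 to 19.5 FPKM with the siRNA and 19.2 to 25.3 FPKM in controls, an overlap at the upper end.

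Smaller partners of BiP went in different directions. Sdf2l1, a component of BiP and ERdj3 complexes, had 6.25, 7.00 and 4.60 FPKM in siRNA libraries 1 to 3, against 10.9, 8.34 and 8.69 FPKM in control libraries 1 to 3. The groups did not overlap, and its fold change of −0.58 on the log2 scale (SE 0.15, limma adjusted p = 0.178) was the lowest of the chaperone group. Creld2, an ER protein induced by ER stress, had 14.5, 15.1 and 11.1 FPKM against 19.2, 15.8 and 18.9 FPKM, also without overlap. Manf, a secreted trophic factor kept in the ER by BiP, had 27.5 FPKM in siRNA library 1 but 43.1 and 38.1 FPKM in siRNA libraries 2 and 3, against 42.7 to 49.1 FPKM in controls, so that siRNA library 2 alone reached the control range. Dnajc3, the co-chaperone p58IPK and an inhibitor of PERK, had 6.74 to 8.26 FPKM against 8.45 to 9.17 FPKM.

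Dnajb9 was the member with the highest fitted change. It encodes ERdj4, a co-chaperone that is a target of spliced XBP1 and that keeps IRE1 bound to BiP. It had 9.96, 10.6 and 9.28 FPKM in siRNA libraries 1 to 3, against 7.81, 9.64 and 8.17 FPKM in control libraries 1 to 3, with control library 2 inside the siRNA range. The log2 fold change was 0.20 (SE 0.11), or 0.32 relative to all entries, at percentile 95.0 of all entries (limma adjusted p = 0.356). Dnajb11, the co-chaperone ERdj3, had 24.8 to 29.9 FPKM against 23.6 to 30.0 FPKM, nearly the same range. The ratio of Dnajb9 to Hspa5, which library scaling does not affect and which was chosen after the values were seen, was 0.106, 0.107 and 0.12 in siRNA libraries 1 to 3, against 0.0604, 0.0862 and 0.0669 in control libraries 1 to 3. Each siRNA ratio was above each control ratio.

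**Figure D4:**
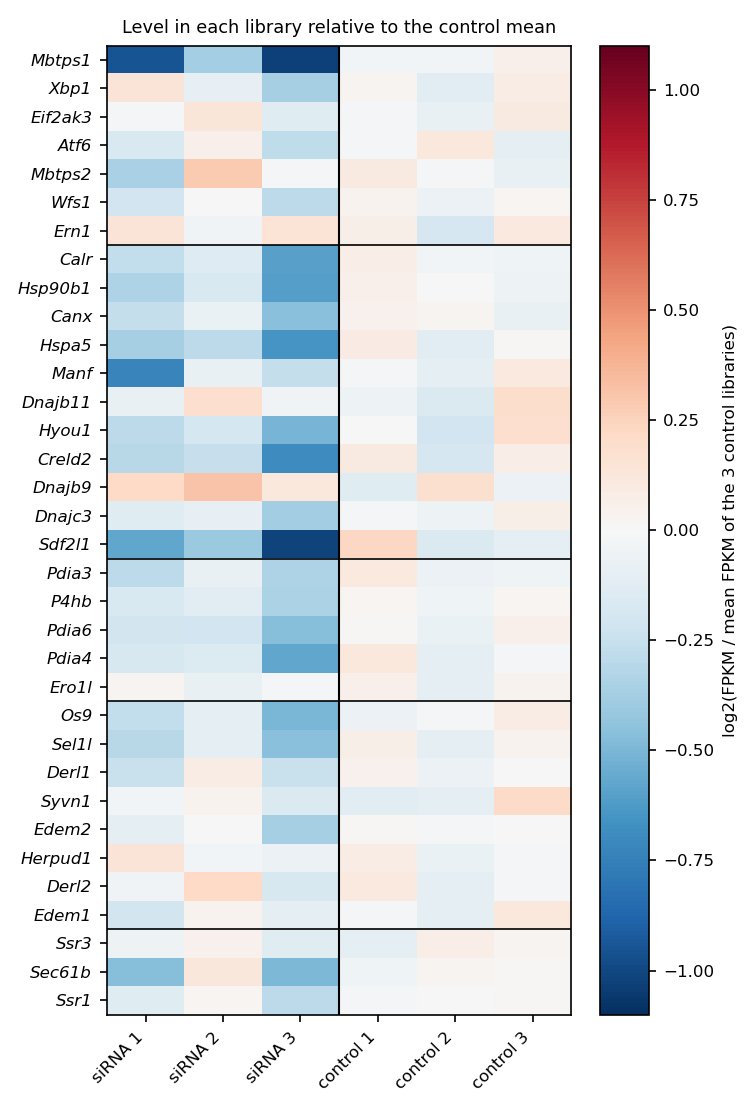
log2 of FPKM over the control mean, for the 34 genes tested (rows, by role and then level) in siRNA libraries 1 to 3 and control libraries 1 to 3 (columns), blue for lower and red for higher. SiRNA library 3 holds the lowest of the 6 values for 26 of the 34 genes, and Dnajb9 is higher than the control mean in each siRNA library.

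The disulfide isomerases, which form and reshuffle disulfide bonds in folding proteins, were also lower in mean with the siRNA. As deposited, 4 of the 5 tested lay entirely below the controls, against 22.1% of all entries. That share was 32.0% for entries between 20 and 80 FPKM and 37.7% for those of 80 FPKM or more. The count was 2 of 5 with median-of-ratios scaling, against 10.1% of all entries. It was 0 with quantile normalization and 0 with the ribosomal RNA locus entries removed, against 9.58% and 4.29% of all entries. Pdia3, the isomerase ERp57 that works with calnexin and calreticulin and the most abundant of the group, had 89.3, 103 and 85.9 FPKM in siRNA libraries 1 to 3, against 117, 104 and 106 FPKM in control libraries 1 to 3. SiRNA library 2 lay just below control library 2, and the log2 fold change was −0.23 (SE 0.11, limma adjusted p = 0.314). Pdia4, Pdia6 and P4hb, the classical isomerase PDI, likewise lay entirely lower with the siRNA, with log2 fold changes of −0.29, −0.29 and −0.21. Ero1l, the oxidase that recharges PDI, had 6.80 to 7.38 FPKM with the siRNA and 6.73 to 7.51 FPKM in controls. It was the one tested member of this group above the median of all entries.

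Among the sensors, the values of the groups overlapped. Ern1 had 1.59, 1.41 and 1.60 FPKM in siRNA libraries 1 to 3, against 1.51, 1.27 and 1.56 FPKM in control libraries 1 to 3. Eif2ak3 had 8.98, 10.0 and 8.31 FPKM with the siRNA, against 9.004, 8.61 and 9.77 FPKM in controls. Atf6 had 6.09, 7.11 and 5.64 FPKM, against 6.74, 7.45 and 6.38 FPKM. The 95% intervals of their log2 fold changes ran from −0.20 to 0.31 for Ern1, from −0.24 to 0.23 for Eif2ak3 and from −0.37 to 0.14 for Atf6. These intervals are not adjusted for the number of entries, and changes within them remain compatible with the values.

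Xbp1, the transcription factor whose mRNA IRE1 splices, had 15.5, 13.2 and 10.9 FPKM in siRNA libraries 1 to 3, against 14.3, 12.9 and 14.8 FPKM in control libraries 1 to 3. The siRNA libraries spanned the control range on both sides (log2 fold change −0.09, SE 0.13, limma adjusted p = 0.717). The table gives 1 value per gene, so spliced and unspliced Xbp1 are not separated, and neither are ATF6 cleavage or PERK phosphorylation measured. Wfs1, an ER membrane protein that restrains ATF6, had 4.08 to 4.99 FPKM with the siRNA and 4.76 to 5.12 FPKM in controls.

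Mbtps1 had the lowest fitted change and the smallest adjusted p of the members. It encodes site-1 protease, which makes the first cut in ATF6 and in the sterol-sensing SREBP factors in the Golgi. Its values were 11.4, 17.0 and 10.8 FPKM in siRNA libraries 1 to 3, against 21.6, 21.5 and 22.9 FPKM in control libraries 1 to 3. The groups did not overlap, and the siRNA values were spread (13.1 ± 3.44 FPKM) where the controls were tight (22.0 ± 0.75 FPKM; SD, n = 3 each). On the log2 scale the fitted difference was −0.74 (SE 0.16), at percentile 0.56 of all entries, and it did not pass (limma adjusted p = 0.132). It passed in 1 of the 14 other fits, the one without siRNA library 2 (−0.93, limma adjusted p = 0.0217). Over those fits the limma adjusted p of Mbtps1 ran up to 0.337. Mbtps2, the site-2 protease that makes the second cut, had 5.10, 7.94 and 6.44 FPKM, against 7.00, 6.40 and 6.15 FPKM in controls. The ratio of Mbtps1 to Mbtps2, chosen after the values were seen, was 2.23, 2.14 and 1.68 in siRNA libraries and 3.09, 3.36 and 3.72 in controls. In the annotation 28.4% of the exonic bases of Mbtps2 are shared with Yy2 on the same strand, so its reads could be split with that gene. Hsp90b1 shares 10.3% of its exonic bases with 1810014B01Rik on the opposite strand, and whether strand was used in counting is not stated. On the same strand it shares 2.08% with Gm15344 and 3.3% with Gm25745, which averaged 51.4 and 172 FPKM. Use of strand would not separate those reads.

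ER degradation genes were divided. Os9, a lectin that delivers misfolded glycoproteins to the ubiquitin ligase and the most abundant of the group, had 42.9, 48.1 and 36.5 FPKM in siRNA libraries 1 to 3, against 49.6, 50.8 and 54.7 FPKM in control libraries 1 to 3, without overlap (log2 fold change −0.29, SE 0.12, limma adjusted p = 0.272). Sel1l, the ligase's scaffold, had 16.2 to 20.9 FPKM against 20.8 to 23.2 FPKM, where siRNA library 2 just reached the lowest control. Syvn1, the ligase HRD1 itself, had 10.6 to 12.2 FPKM against 10.8 to 13.7 FPKM. Herpud1, an ER membrane protein of the same complex that is strongly induced by ER stress, had 8.35 to 9.62 FPKM against 8.27 to 9.25 FPKM, and Edem1, a mannosidase-like factor, 3.63 to 4.29 FPKM against 3.91 to 4.52 FPKM. Edem2, Derl1 and Derl2 had log2 fold changes of −0.15, −0.12 and 0.0050. Selenok, the current name of Selk, had 22.0, 25.7 and 24.3 FPKM with the siRNA, against 27.4, 24.7 and 26.8 FPKM in controls. RefSeq lists several Selenok pseudogenes whose reads could be confused with it.

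Of the translocation genes, which bring nascent chains into the ER, Ssr3, a subunit of the translocon-associated complex, had 119, 128 and 113 FPKM in siRNA libraries 1 to 3, against 115, 130 and 127 FPKM in control libraries 1 to 3. The groups overlapped over most of their ranges (log2 fold change −0.05, SE 0.10, limma adjusted p = 0.827). Sec61b, the beta subunit of the channel, had 15.5 FPKM in siRNA library 2 but 10.2 and 10.1 FPKM in siRNA libraries 1 and 3, against 13.7 to 14.4 FPKM in controls. Ssr1 had 10.6 to 13.1 FPKM against 12.7 to 13.0 FPKM.

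Taken as shares of the members' own sum, the balance between roles can be read without library scaling. Chaperones and co-chaperones made up 52.6%, 53.4% and 51.5% of the summed FPKM of the 36 genes in siRNA libraries 1 to 3, against 55.5%, 54.6% and 54.0% in control libraries 1 to 3. The translocation genes, mostly Ssr3, made up 11.3%, 11.3% and 12.1%, against 9.25%, 10.8% and 10.3%. Both shares kept the groups apart, in opposite directions. Shares of 1 sum are tied, so a lower share of the largest role raises others without any rise in their FPKM. The translocation genes themselves summed to 144 ± 11.7 FPKM with the siRNA and 151 ± 8.20 FPKM in controls, with overlap. The shares of the other 3 roles overlapped, among them the disulfide group at 21.9% to 23.0% against 21.7% to 22.7%. The summed FPKM of the 36 genes was 1249 ± 145 with the siRNA and 1496 ± 37.9 in controls (SD, n = 3 each). As a part of all FPKM other than the 9 ribosomal RNA locus entries, the members took 0.305%, 0.314% and 0.303%, against 0.327%, 0.303% and 0.331%, and on that scale control library 2 lay among the siRNA libraries.

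The order of the siRNA libraries was shared by most members. SiRNA library 2 was the highest of the 3 for 29 of 34 members (64.2% of all entries), and siRNA library 3 was the lowest of the 6 libraries for 26 of 34 (48.3% of all entries). SiRNA library 2 had the smallest share of FPKM in the ribosomal RNA locus entries, 3.24%, and siRNA library 3 the largest, 19.9%. The liver list moved with the groups, at 1.96 to 2.22 FPKM with the siRNA and 33.4 to 55.5 FPKM in controls. The part of either in these values was not tested. The members varied more with the siRNA, with a median coefficient of variation of 12.2% against 6.32% in controls, and it was larger with the siRNA for 28 of 34 members.

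Level also moved with the difference over the whole table. The 700 entries averaging 80 FPKM or more had a median log2 fold change of −0.21, and 37.7% of them lay entirely lower with the siRNA, while for entries between 1 and 5 FPKM these values were −0.08 and 14.7%. The 7 members of at least 80 FPKM had a median of −0.26, with 5 entirely lower. Between 20 and 80 FPKM the 6 members had a median of −0.29, against −0.17 for all 2673 entries of that range. The 18 members between 5 and 20 FPKM had a median of −0.12, equal to that of all entries at that level.

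Of the 10 members with an ERSE match, shown above with their sequences, 8 were tested, and Derl3 and Ero1lb were too weak. As deposited, the siRNA libraries lay entirely below the controls for 6 of the 8, against 22.1% of all entries. That share was 37.7% for entries averaging 80 FPKM or more, but Pdia6, Creld2, Syvn1 and Dnajc3 averaged less. It was 32.0% between 20 and 80 FPKM and 21.4% between 5 and 20 FPKM. Of the 8, 7 lay below the median of all entries. The 8 had a median log2 fold change of −0.31 and a range from −0.43 for Hspa5 to −0.04 for Syvn1. Of the 21 tested members whose promoter held neither ERSE nor ERSE-II, 6 lay entirely lower and 11 lay below the median of all entries. Their median was −0.12, and they included both extremes, Mbtps1 and Dnajb9. Apart from Pdia6 and Syvn1, the 8 were chaperones and co-chaperones, so the element and the role were not separated. Over all 11 of that role, 6 lay entirely lower as deposited. That count was 5 with median-of-ratios scaling and 3 with the ribosomal RNA locus entries removed, against 10.1% and 4.29% of all entries. The difference between members with and without the element was not tested.

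Directions against 0 depended on the scaling, while Mbtps1, Sdf2l1 and Hspa5 were the lowest members and Dnajb9 the highest under each of the 4 scalings. With median-of-ratios scaling 19 of 34 members were lower and 15 higher, and after removal of the ribosomal RNA locus entries with rescaling 16 were lower and 18 higher. Hspa5 had −0.29 and −0.22 in these fits, Sdf2l1 −0.45 and −0.40, Mbtps1 −0.61 and −0.54, and Dnajb9 0.33 and 0.39. With median-of-ratios scaling 10 members that were lower as deposited had fitted changes above 0, among them Eif2ak3, Atf6, Xbp1 and Ssr3. Relative to the median of all entries, 9 of 11 chaperones and co-chaperones were lower in the values as deposited and in each of the 14 other fits, and the members' count ran from 18 to 22 of 34 in the fits that tested 34.

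**Figure D5:**
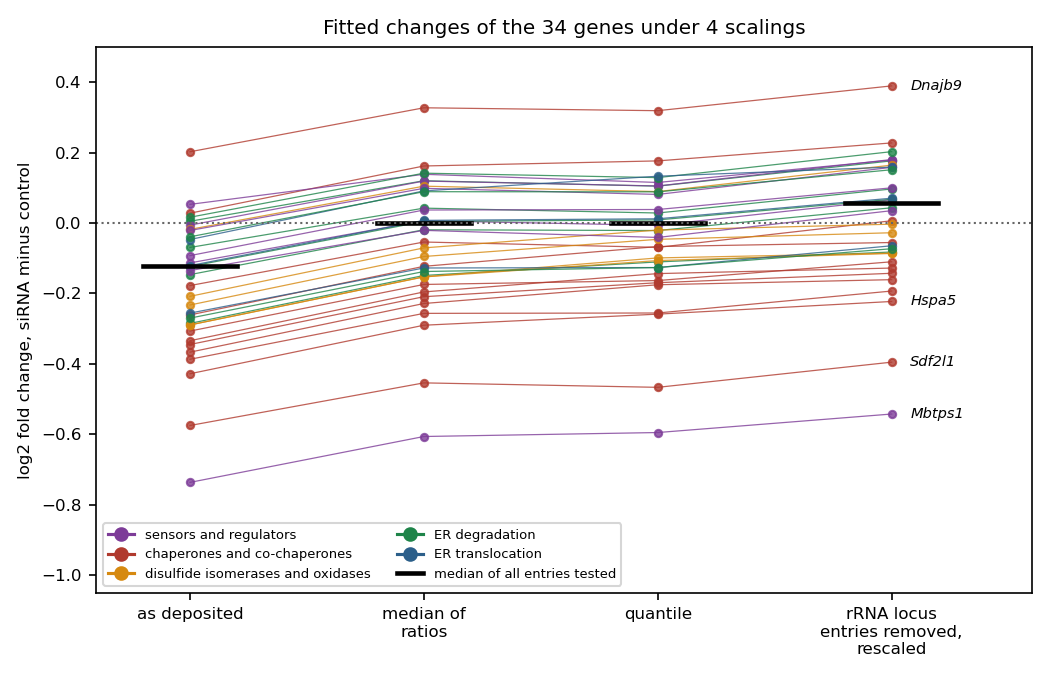
Fitted log2 fold change (siRNA minus control) of each of the 34 genes under 4 scalings, joined by lines and coloured by role, with black bars for the median of all entries tested. The median of all entries moves from −0.12 to 0.06, while Mbtps1 and Sdf2l1 remain the lowest and Dnajb9 the highest.

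Other genes of the pathway were taken from 6 wider lists of 132 symbols, of which 117 were tested. None passed the test (limma adjusted p from 0.106 to 0.985), and at an unadjusted p below 0.05, 3 were higher and 21 lower with the siRNA, against 1.83% and 15.5% of all entries. The siRNA libraries lay entirely below the controls for 29 of the 117 and entirely above for 4, against 22.1% and 2.65% of all entries, and the median log2 fold change was −0.13.

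Of the 9 tested genes in the list for the branch of PERK, ATF4 and CHOP, none passed, 8 lay above the median of all entries and 3 lay entirely higher with the siRNA, against 2.65% of all entries. The fitted change was negative for 3 of the 9, and the list's median was 0.05. Atf4, the transcription factor translated when PERK or related kinases are active, had 116, 140 and 131 FPKM in siRNA libraries 1 to 3, against 98.4, 98.9 and 108 FPKM in control libraries 1 to 3 (log2 fold change 0.33, SE 0.11, limma adjusted p = 0.21). Ppp1r15a, the phosphatase subunit GADD34 that reverses PERK signalling, had 9.39, 8.19 and 8.51 FPKM against 6.28, 6.77 and 7.13 FPKM, and Chac1, a glutathione-degrading enzyme induced by ATF4, had 3.99, 3.27 and 3.92 FPKM against 2.58, 2.70 and 1.94 FPKM. These 3 were without overlap, and Ppp1r15a and Chac1 were named after their values were seen. Ddit3, which encodes CHOP, had 11.9, 10.4 and 12.7 FPKM against 10.9, 11.4 and 11.7 FPKM, with overlap. Atf3, Trib3 and Cebpb of this list averaged less than 1 FPKM and were not tested. Atf3 had 1.04 to 1.65 FPKM against 0.478 to 0.619 FPKM, and Trib3 0.814 to 1.36 FPKM against 0.538 to 0.793 FPKM, both without overlap. Cebpb had 0.0332 to 0.266 FPKM against 0.121 to 0.228 FPKM, with overlap.

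The medians of the other lists were below 0, as was that of all entries, −0.12. Those of the further ER degradation genes (−0.05) and the further sensors and regulators (−0.11) lay above the median of all entries. Below it lay those of the further folding genes (−0.14), the further disulfide genes (−0.19) and the translocation and N-glycosylation genes (−0.18). Tmbim6, an ER membrane inhibitor of cell death and the most abundant of the further folding genes, had 104 to 127 FPKM against 110 to 122 FPKM. Tmx2, a membrane thioredoxin, had 73.8 to 87.2 FPKM against 94.5 to 103 FPKM, in a list of further disulfide genes where 5 of 16 lay entirely lower, against 22.1% of all entries and 32.0% of those between 20 and 80 FPKM. Ssr2, another subunit of the translocon-associated complex, had 78.6 to 109 FPKM against 80.6 to 120 FPKM, in a list of translocation and N-glycosylation genes where 13 of 33 lay entirely lower, against the same shares. Vcp, the ATPase that pulls proteins out of the ER, had 50.7 to 62.2 FPKM against 59.1 to 64.4 FPKM, and Bax, a cell death effector in the list of further regulators, had 102 to 103 FPKM against 105 to 121 FPKM. The smallest adjusted p of these lists was that of Sec61a2, a channel subunit named after its values were seen, with 7.43, 9.60 and 9.27 FPKM in siRNA libraries 1 to 3, against 13.1, 15.5 and 14.0 FPKM in control libraries 1 to 3 (log2 fold change −0.64, SE 0.12, limma adjusted p = 0.106).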

How the data were processed

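The authors deposited 1 table of FPKM values, 1 column per library and 1 row per gene symbol. Per the labels' protocols, poly(A) RNA was made into strand-marked libraries whose adapters carried molecular identifiers and sequenced as paired ends (Illumina NovaSeq). HISAT, StringTie and edgeR and the mm9 build are named per the submitters' processing notes, without versions. The annotation, the use of strand in counting and any removal of duplicates are not stated there. Depth was estimated from the steps of low FPKM values of genes with 1 transcript of at least 500 nt (39.6% to 43.6% within 0.05 of a whole multiple).

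FPKM values with 1 added were put on the log2 scale for 13702 entries averaging 1 FPKM or more over the 6 libraries. The siRNA and control libraries were then contrasted by limma 3.58.1, run in R 4.3.3 (mean-variance trend, two-sided, Benjamini-Hochberg over all entries, called below 0.05). The steps were tested on simulated data. Fold changes of weak genes are understated on this scale. The members, the wider lists, the scalings and the tests were chosen with earlier results of these data known. Given with each library's value were, per role, the most abundant member, the highest and lowest fitted changes, the sensors, Xbp1 and Hspa5, with Atf4 and Ddit3 from the wider lists. The most abundant gene of each wider list was named, by its range except for Atf4. Any further gene was picked with its values in view. Promoters came from RefSeq (GRCm38.p6) and exonic overlaps from GENCODE M21, and neither is of the build of the table.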

Additional observations from a re-analysis of the deposited data

How the results depend on the processing

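With 3 libraries per group, standard errors of members ran from 0.0933 to 0.158 on the log2 scale, and 1 fragment of a 1 kb transcript was worth 0.0457 to 0.0543 FPKM, so Derl3 and Ero1lb rest on few fragments. No member was called under the other pseudocount, filters, scalings or moderation or with the replicate block. Leaving out 1 library, 0 rose and 0 to 1 fell, the 1 being Mbtps1 without siRNA library 2. The cause of these shifts was not tested. Over all entries, 16 rose and 19 fell. The count that rose was 7 with no filter, 3 with median-of-ratios scaling, 4 with quantile normalization and 2 to 15 without 1 library. The count that fell was 8 at a mean of at least 5 FPKM, 11 with median-of-ratios scaling, 12 with quantile normalization and 6 to 23 without 1 library. Members with siRNA libraries entirely higher numbered 0 as deposited, 2 with median-of-ratios scaling, 3 with quantile normalization, 4 with ribosomal RNA locus entries removed and 0 to 1 without 1 library, against 2.65%, 10.1%, 9.8%, 14% and 3.42% to 6.27% of all entries in the same order. Members entirely lower numbered 12 as deposited, 9 with median-of-ratios scaling, 6 with quantile normalization, 4 with those entries removed and 12 to 23 without 1 library. The shares of all entries were 22.1%, 10.1%, 9.58%, 4.29% and 24.1% to 42.4% in the same order. The members' median was 0.0207 with those entries removed.

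Of 473 values of members under other settings, 424 kept direction and call, 1 became a call and 48 changed sign, none of them a call. Log2 fold changes above 0 in place of below 0 were, with median-of-ratios scaling, Eif2ak3 0.119, Atf6 0.00644, Xbp1 0.0369, Mbtps2 0.0985, Ero1l 0.105, Edem1 0.0422, Syvn1 0.0889, Derl1 0.00455, Ssr1 0.00748 and Ssr3 0.0912. With quantile normalization they were Eif2ak3 0.105, Xbp1 0.0384, Mbtps2 0.0812, Ero1l 0.0892, Edem1 0.0284, Syvn1 0.0885, Derl1 0.00875, Ssr1 0.012 and Ssr3 0.133. With the ribosomal RNA locus entries removed they were Eif2ak3 0.18, Atf6 0.0661, Xbp1 0.0999, Mbtps2 0.158, Wfs1 0.0351, Dnajc3 0.00637, Ero1l 0.164, Edem1 0.0967, Edem2 0.0433, Syvn1 0.151, Derl1 0.0674, Ssr1 0.0705 and Ssr3 0.159. Without 1 library the sign varied for Derl2 −0.0865 to 0.0781, Dnajb11 −0.0509 to 0.124, Eif2ak3 −0.0693 to 0.0507, Ero1l −0.0606 to 0.00953, Herpud1 −0.0401 to 0.0554, Mbtps2 −0.157 to 0.118, Syvn1 −0.0939 to 0.0627 and Xbp1 −0.208 to 0.0273.

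Whether the replicate numbers pair the libraries was not settled. Deviations from the group means correlated at 0.046, 0.015 and 0.13 for same-numbered libraries, and at −0.17 to 0.12 for the other combinations. SiRNA library 1 correlated best with control library 2, and siRNA library 3 with control library 3. Within a group these deviations are tied to each other through the group mean, so the check cannot decide. With the replicate block 0 members were called, with a lowest limma adjusted p of 0.116, and 7 were lower at an unadjusted p below 0.05, against 1847 of all 13702 entries.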
